A study of Mus musculus with 16 samples.

Results

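Genes that mark the endothelium, the cell layer lining blood vessels, were followed in gonadal white adipose tissue (gWAT) of mice. The set held 10 genes listed by name (Pecam1, Cdh5, Kdr, Flt1, Tek, Tie1, Eng, Egfl7, Esam and Vegfa). All 10 were found among the 19373 genes of the expression table, each on a single line, and all 10 passed the filter on low values described with the tests. The name of the set held for 9 of the genes. Vegfa encodes a growth factor that acts on endothelial cells and is secreted by adipocytes, macrophages and other cells, so it was described as the ligand and not as a marker.

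RNA came from 16 male mice on the C57Bl6/J background, with 1 library per mouse and 4 mice in each of 4 groups. Control mice (Mboat7 flox/flox, labelled Flox) carried a floxed Mboat7 allele without Cre. Mboat7 ASKO mice carried the same allele and Cre driven by the adiponectin promoter, a promoter active in adipocytes. Both genotypes ate chow or HFD (high-fat diet) over 20 weeks, and the tissue was taken after a saline perfusion that clears blood from the vessels. The mice were age-matched, and their age is not given in the sources used here. The comparisons ask what the diet does to this tissue and whether the loss of Mboat7 from adipocytes alters that response. By design the deletion is meant for adipocytes and not for endothelial cells, in which Mboat7 was not measured here.

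Values are FPKM, the fragments of a gene per kilobase of its transcript, scaled to the fragments mapped in the library. The table gives no read counts, but low values clustered at whole multiples of a unit that shrank with transcript length. If that unit is a single fragment, a library held 229885 to 404858 fragments on this scale, with a median of 329122. The unit of each library was the one that best fitted these same low values. Per library, 50.4% to 76.7% of low values then came within 0.2 of a whole multiple. An even spread would give 40% for a unit fixed beforehand and more for a fitted one. The clustering was not tested, and this scale and the fragment numbers taken from it are approximate. On it, Pecam1 rested on 10.9 to 44.1 fragments per mouse and Vegfa on 3.3 to 38.9, while Esam rested on at most 5.3, Eng on at most 6.2 and Tie1 on at most 8.5, and Egfl7 on a median of 3.2. Exact zeros were frequent, with 14373 genes listed at 0 in at least 1 mouse. Pgk1, a glycolytic gene used by every cell and picked after its values were seen, was above 0 in only 5 of 16 mice. A gene is therefore described as listed at 0 and not as absent.

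A pair of libraries stood apart from the rest. In control HFD mouse 1 and ASKO HFD mouse 3, the same single gene took 32.6% and 31.4% of the FPKM sum, against 9.61% to 22.3% for the highest gene of the other 14 libraries. The diet results of the members over both genotypes are given with and without both libraries. Mboat7 itself (ENSMUSG00000035596.14, chr7:3677789-3693523, minus strand of GRCm38) was at 2.42, 4.33, 0.902 and 4.99 FPKM in the control chow mice and at 0, 1.39, 0 and 2.89 FPKM in the ASKO chow mice. On HFD it was at 0, 0, 2.15 and 1.61 FPKM in the control mice and at 1.14, 0, 2.6 and 0 FPKM in the ASKO mice. The groups overlapped on both diets, and the highest value stood for about 5.2 fragments. At this depth the labels could not be checked by the targeted gene, whose exons also overlap those of Tsen34 on the opposite strand.

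As background, vessels in fat grow and regress with the tissue. VEGF-A, the product of Vegfa, binds the receptor tyrosine kinases VEGFR1 (Flt1) and VEGFR2 (Kdr), of which VEGFR2 carries most of the growth signal and VEGFR1 also acts as a decoy. Angiopoietins act on TIE2 (Tek), with TIE1 (Tie1) as a partner receptor, and set how tightly a vessel is sealed. Endoglin (Eng) is a co-receptor for BMP ligands, while PECAM-1, VE-cadherin (Cdh5) and ESAM hold neighbouring endothelial cells together. EGFL7 is a secreted endothelial protein whose gene also carries the microRNA miR-126.

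Ordered by their median over all 16 mice, Pecam1 was highest at 19.2 FPKM, followed by Vegfa at 11.6, Egfl7 at 7.42, Cdh5 at 6.19 and Tek at 5.58. Kdr followed at 3.87 FPKM, Esam at 2.3, Flt1 at 2.26, Tie1 at 1.2 and Eng at 0.847. The ranges of every neighbouring pair in this order overlapped. The place of Vegfa differed between diets. On chow its median of 22.4 FPKM was above that of Pecam1 at 16.2. On HFD its median of 7.57 FPKM was below those of Pecam1 (23.9), Cdh5 (8.38) and Egfl7 (8.06). Pecam1 was above Vegfa in 11 of 16 mice, Tek was above Kdr in 15 and Flt1 was above Tie1 in 14. The steps from Esam to Flt1 (7 of 16 mice) and from Tie1 to Eng (5 of 16) did not exceed the spread. Each gene of the set was above 0 in most mice, with Eng listed at 0 in 5 mice, Tie1 in 4, and Egfl7 and Esam in 2 each. The tissue thus held endothelial transcripts in every library, and the lowest marker values stood on few fragments.

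Among the members, Vegfa was the only gene that passed the diet test. It fell on HFD when both genotypes were pooled in the comparison, and none of the 9 endothelial markers passed the test in either direction. The chow values of Vegfa were close together in control mice and widely spread in ASKO mice. Vegfa (ENSMUSG00000023951.16, chr17:46016993-46032369, minus strand) was at 22.4, 25.6, 18.8 and 22.5 FPKM in the control chow mice. In the control HFD mice it was at 7.42, 3.2, 8.74 and 6.7 FPKM. Every control mouse on HFD was below every control mouse on chow, and the chow values were close together. In the ASKO mice Vegfa was at 49.1, 30.1, 13.8 and 8.15 FPKM on chow and at 3.82, 7.71, 9.41 and 15 FPKM on HFD. These groups overlapped, since the lowest chow mouse was below a pair of the HFD mice.

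Over both genotypes, Vegfa averaged 23.8 ± 12.3 FPKM (SD, n = 8) on chow and 7.75 ± 3.66 FPKM (SD, n = 8) on HFD. Tests were run with limma on log2(FPKM + 1) in the 13148 genes that reached 1 FPKM in 4 or more mice. To pass, a gene needed an adjusted p under 0.05 and a log2 fold change beyond 0.5 in size. The log2 fold change of Vegfa was -1.46 (SE 0.35, 95% interval -2.21 to -0.71, limma adjusted p = 0.0159). With both libraries that stood apart left out it was -1.47 (adjusted p = 0.0265), and the adjusted p lay between 0.00516 and 0.0365 over 26 alternative settings. Vegfa was thus 1 of 10 members that passed, against 7.53% of all genes tested. In the lower direction this was 1 of 10 against 3.04% of all genes, and in the higher direction 0 of 10 against 4.49%, with no member higher at an unadjusted p under 0.05. A single gene of 10 is close to the share of all genes and says nothing about the set.

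In the control mice alone, the log2 fold change of Vegfa was -1.69 (95% interval -2.75 to -0.64, limma adjusted p = 0.0889), which missed the threshold. In the ASKO mice it was -1.23 (95% interval -2.28 to -0.17, adjusted p = 0.242). The difference between these effects was 0.46 with a 95% interval of -1.03 to 1.96 (interaction, adjusted p = 0.945) and was -0.06 without the libraries that stood apart, so the response of Vegfa to diet was not shown to differ between genotypes. With only the compared groups in the fit, Vegfa passed in the control mice (adjusted p = 0.0397, the lowest of 27 alternatives, of which the highest gave 0.229). Within each genotype 0 of 10 members passed, against 2.91% of all genes in the control mice and 3.43% in the ASKO mice. At an unadjusted p under 0.05 there was 1 of 10 members in the control mice (Vegfa) and 2 of 10 in the ASKO mice (Vegfa and Esam), against 1870 and 1974 of all 13148 genes.

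**Figure D1:**
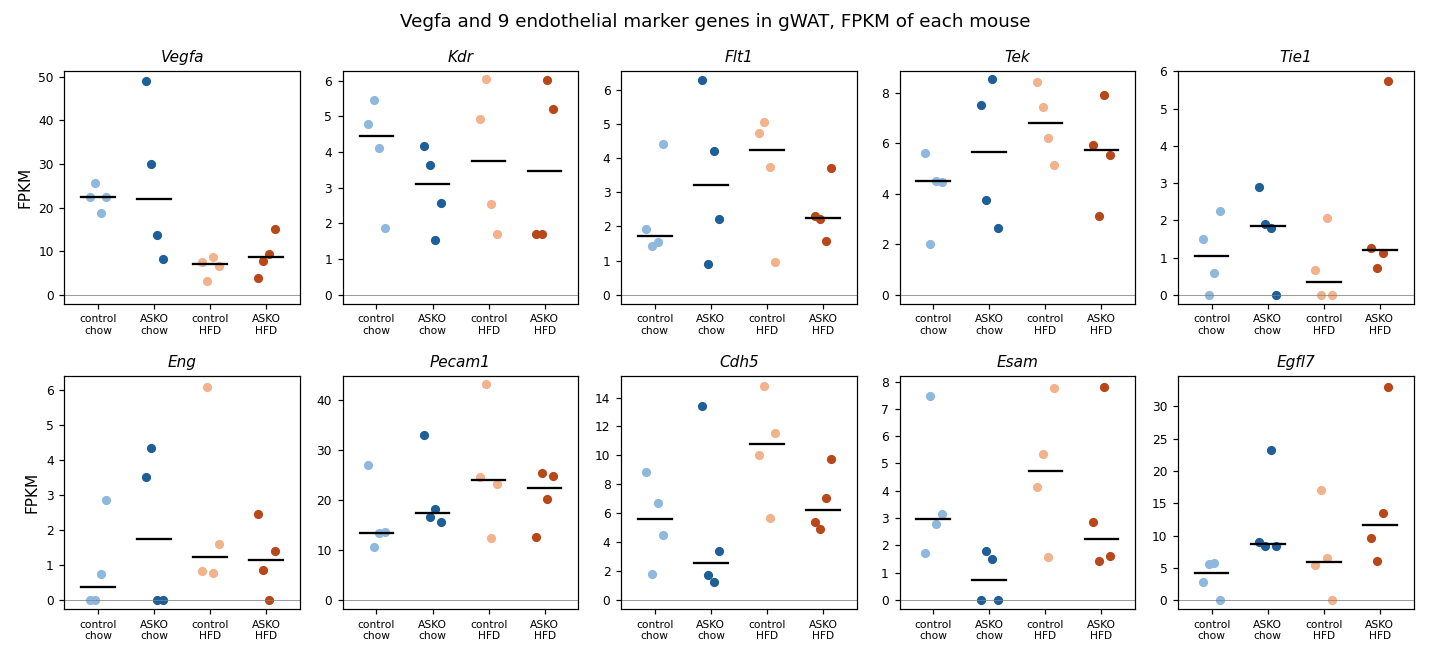
FPKM of Vegfa and the 9 endothelial markers in gWAT, 1 panel per gene, with the 4 groups of 4 mice on the horizontal axis and FPKM on the vertical axis, from 0. Points are mice and black bars are group medians. In the Vegfa panel the control HFD mice lie between 3.2 and 8.74 FPKM, below all control chow mice, while the groups of the other panels mostly overlap.

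The promoters of the ligand that fell and of its receptors that did not pass are shown for comparison, since their windows share the GC box. RefSeq promoter windows of GRCm38.p6 matched 7 of 10 members, leaving Pecam1, Cdh5 and Esam by name only. Each window is the 250 bases before the RefSeq transcription start nearest to the GENCODE start, written 5′ to 3′ on the strand of the gene. For Egfl7 and Tie1 these starts lay 1069 and 212 bases apart, so their windows overlap the genes as positioned here. Capitals mark the GC box letters GGGCGG (bound by SP factors) and the ETS core AGGAAG, each on either strand, and these motifs do not overlap in the sequences shown. The window of Vegfa is chr17:46032378-46032627, that of Kdr chr5:75978456-75978705 and that of Flt1 chr5:147726012-147726261, all on the minus strand.
Vegfa: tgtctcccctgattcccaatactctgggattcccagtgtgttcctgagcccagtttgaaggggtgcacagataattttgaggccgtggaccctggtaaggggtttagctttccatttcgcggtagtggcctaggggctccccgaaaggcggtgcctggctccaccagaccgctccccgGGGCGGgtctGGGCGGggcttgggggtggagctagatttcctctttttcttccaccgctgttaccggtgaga
Kdr: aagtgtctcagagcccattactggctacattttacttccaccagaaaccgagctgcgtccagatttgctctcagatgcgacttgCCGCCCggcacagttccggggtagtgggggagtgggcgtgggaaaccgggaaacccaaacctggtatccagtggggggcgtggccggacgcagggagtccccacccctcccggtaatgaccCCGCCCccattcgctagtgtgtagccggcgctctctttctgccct
Flt1: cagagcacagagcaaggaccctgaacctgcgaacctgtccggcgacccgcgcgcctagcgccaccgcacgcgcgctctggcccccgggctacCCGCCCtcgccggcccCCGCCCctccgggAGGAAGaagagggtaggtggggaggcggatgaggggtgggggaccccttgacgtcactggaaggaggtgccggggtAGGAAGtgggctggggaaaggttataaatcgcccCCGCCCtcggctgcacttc
GGGCGG occurred in 3 of 7 member windows, those shown, against 32.7% of 32851 promoter windows of the same length. AGGAAG occurred in 4 of 7 (Flt1, Tie1, Eng and Egfl7) against 29.5%, and TATAAA in 1 of 7 (Flt1) against 12.4%. The hypoxia response core ACGTG occurred in 0 of 7 windows against 16.6%, which says only that these letters are not in these windows. Matches are a description of the sequence and not of binding.

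Both VEGF receptors stayed within the spread of the mice. Kdr (ENSMUSG00000062960.10, chr5:75932827-75978458, minus strand) was at 4.78, 5.44, 4.11 and 1.88 FPKM in the control chow mice and at 4.16, 3.63, 1.55 and 2.58 FPKM in the ASKO chow mice. On HFD, Kdr was at 4.92, 6.05, 2.55 and 1.7 FPKM in the control mice and at 1.71, 1.71, 6.02 and 5.19 FPKM in the ASKO mice. High and low mice occurred in every group, and the HFD mice split into a low and a high pair in both genotypes. With diet, Kdr had a log2 fold change of 0.01 over both genotypes (95% interval -0.72 to 0.75, limma adjusted p = 0.994), an interval that leaves room for changes of either sign.

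Flt1 (ENSMUSG00000029648.13, chr5:147561604-147726011, minus strand) was at 1.91, 1.43, 1.55 and 4.42 FPKM in the control chow mice and at 6.28, 0.898, 4.22 and 2.22 FPKM in the ASKO chow mice. On HFD, Flt1 was at 4.72, 5.07, 3.74 and 0.958 FPKM in the control mice and at 2.29, 2.21, 1.58 and 3.7 FPKM in the ASKO mice. All groups overlapped, with 3 control mice on HFD above 3 control mice on chow. The log2 fold change of Flt1 with diet was 0.11 over both genotypes (95% interval -0.67 to 0.89, adjusted p = 0.929). With both libraries that stood apart left out, the values of Kdr and Flt1 were -0.19 and -0.06, so neither sign was stable.

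The receptors of the angiopoietin axis also did not pass. Tek (ENSMUSG00000006386.15, chr4:94739289-94874976, plus strand) was at 5.61, 2.01, 4.51 and 4.47 FPKM in the control chow mice and at 7.5, 3.76, 8.54 and 2.63 FPKM in the ASKO chow mice. On HFD, Tek was at 8.43, 7.43, 6.19 and 5.15 FPKM in the control mice and at 5.92, 3.12, 7.92 and 5.54 FPKM in the ASKO mice. The control mice on HFD were mostly above those on chow, with an overlap of 1 mouse, and the ASKO groups were mixed. Its log2 fold change with diet was 0.35 (95% interval -0.29 to 0.99, limma adjusted p = 0.606).

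Tie1 (ENSMUSG00000033191.14, chr4:118471191-118490061, minus strand) was at 1.51, 0, 0.588 and 2.26 FPKM in the control chow mice and at 2.9, 1.89, 1.79 and 0 FPKM in the ASKO chow mice. On HFD, Tie1 was at 0.673, 0, 2.07 and 0 FPKM in the control mice and at 1.27, 0.732, 1.12 and 5.73 FPKM in the ASKO mice. Mice listed at 0 occurred in 3 of the 4 groups, and ASKO HFD mouse 3, which is a library that stood apart, was the highest of all. Its log2 fold change with diet was -0.06 (95% interval -0.93 to 0.81, adjusted p = 0.964) and 0.01 with upper-quartile scaling.

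Eng (ENSMUSG00000026814.16, chr2:32646595-32682669, plus strand) was at 0, 0, 0.737 and 2.85 FPKM in the control chow mice and at 3.51, 4.33, 0 and 0 FPKM in the ASKO chow mice. On HFD, Eng was at 0.84, 6.09, 0.761 and 1.59 FPKM in the control mice and at 2.45, 0.855, 0 and 1.41 FPKM in the ASKO mice. All groups overlapped, and the highest value belonged to control HFD mouse 1, the other library that stood apart. Its log2 fold change with diet was 0.31 (95% interval -0.70 to 1.33, limma adjusted p = 0.81). Exons of Eng overlap those of Fpgs on the opposite strand. Whether strand entered the counting is not given in the sources used here, so fragments of both genes cannot be told apart, and Fpgs itself (looked up after the values of Eng were seen) had a diet value of 0.46 (adjusted p = 0.748).

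Among the genes of junction proteins, Cdh5 and Esam had the highest diet values of the set, and neither passed. Pecam1 (ENSMUSG00000020717.19, chr11:106654217-106750628, minus strand), which platelets and some leukocytes also make, was at 27, 10.5, 13.3 and 13.6 FPKM in the control chow mice and at 32.9, 16.7, 18.1 and 15.7 FPKM in the ASKO chow mice. On HFD, Pecam1 was at 24.6, 43.1, 12.4 and 23.2 FPKM in the control mice and at 12.6, 25.4, 20.2 and 24.8 FPKM in the ASKO mice. Chow and HFD mice overlapped in both genotypes, and a single chow mouse of each genotype was far above the others of its group. Its log2 fold change with diet was 0.31 (95% interval -0.30 to 0.92, limma adjusted p = 0.637).

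Cdh5 (ENSMUSG00000031871.9, chr8:104101625-104144511, plus strand) was at 8.88, 1.79, 6.73 and 4.49 FPKM in the control chow mice and at 13.4, 1.75, 1.27 and 3.42 FPKM in the ASKO chow mice. On HFD, Cdh5 was at 10, 14.8, 5.65 and 11.6 FPKM in the control mice and at 5.36, 4.93, 7.03 and 9.73 FPKM in the ASKO mice. The 5 lowest chow mice were below every HFD mouse, yet the chow mouse with the highest value was above all but 1 of the HFD mice. Its diet value was a log2 fold change of 0.83 (95% interval -0.01 to 1.67, adjusted p = 0.264), the highest of the 9 markers.

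Esam (ENSMUSG00000001946.13, chr9:37528078-37538319, plus strand) was at 1.73, 7.49, 2.79 and 3.16 FPKM in the control chow mice and at 0, 1.81, 1.49 and 0 FPKM in the ASKO chow mice. On HFD, Esam was at 4.14, 5.34, 1.56 and 7.76 FPKM in the control mice and at 2.87, 1.43, 7.81 and 1.62 FPKM in the ASKO mice. The ASKO chow mice held all values of the gene listed at 0, and the remaining groups covered nearly the same range. With diet, its log2 fold change was 0.75 over both genotypes (95% interval -0.12 to 1.61, limma adjusted p = 0.354). In the ASKO mice alone it was 1.24 (95% interval 0.01 to 2.47, unadjusted p = 0.0478, limma adjusted p = 0.325).

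Egfl7 (ENSMUSG00000026921.18, chr2:26580014-26593120, plus strand) was at 2.81, 5.61, 5.68 and 0 FPKM in the control chow mice and at 8.97, 8.42, 23.3 and 8.39 FPKM in the ASKO chow mice. On HFD, Egfl7 was at 5.46, 17, 6.45 and 0 FPKM in the control mice and at 9.68, 6.08, 13.5 and 33.1 FPKM in the ASKO mice. On chow every ASKO mouse was above every control mouse, and on HFD the groups overlapped. With diet, its log2 fold change was 0.40 over both genotypes (95% interval -0.80 to 1.59, limma adjusted p = 0.793), and -0.11 with both libraries that stood apart left out.

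Across the 9 markers, the median log2 fold change with diet over both genotypes was 0.31, with 8 of 9 values above 0 and a range of -0.06 to 0.83. It was 0.591 in the control mice and 0.138 in the ASKO mice. The pooled values of some markers join opposite signs. In the control and ASKO mice, Flt1 was at 0.43 and -0.21, Eng at 0.79 and -0.16, Tie1 at -0.33 and 0.21, and Kdr at -0.11 and 0.14. No interaction passed. Over both genotypes, the median of all genes tested was 0.00873. Under the 3 scaling alternatives the median of the 9 stayed above that of all genes, at 0.46 with upper-quartile scaling, which itself shifted the median of all genes to 0.107. Without the libraries that stood apart it was 0.04, with 4 of 9 values below 0. Single values were then 0.12 for Pecam1, 0.66 for Cdh5, 0.79 for Esam, 0.32 for Tek, -0.18 for Tie1 and 0.04 for Eng, beside those of Kdr, Flt1 and Egfl7 given above, and none passed. The 95% intervals of the 9 markers were 1.22 to 2.39 wide on the log2 scale, so changes of moderate size in either direction could not be detected. The summed FPKM of the 9 markers ran from 34.3 to 79.6 on chow (median 41.6, 8 mice) and from 41.4 to 104.9 on HFD (median 57.9, 8 mice). The highest HFD sums belonged to the libraries that stood apart, control HFD mouse 1 at 104.9 and ASKO HFD mouse 3 at 90.8. In bulk tissue, the number of endothelial cells and the RNA per endothelial cell cannot be told apart.

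**Figure D2:**
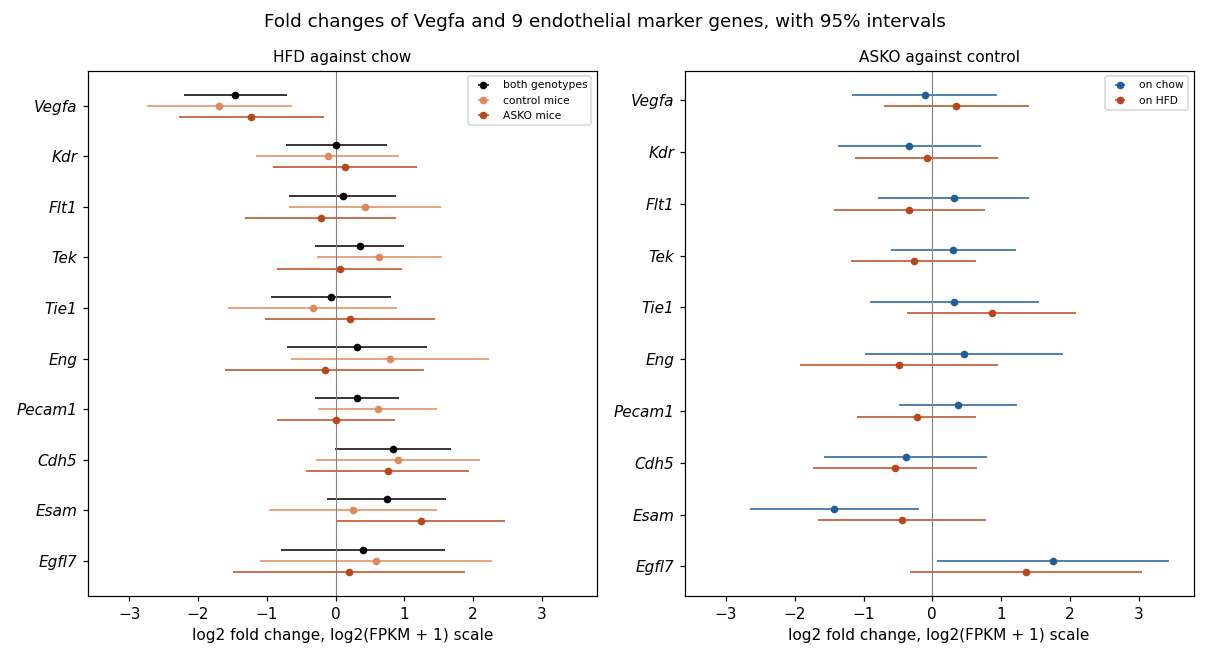
Log2 fold changes of Vegfa and the 9 markers on the log2(FPKM + 1) scale, with HFD against chow on the left (both genotypes, control mice and ASKO mice) and ASKO against control on the right (chow and HFD). Points are limma estimates and bars are 95% intervals. The Vegfa interval for both genotypes runs from -2.21 to -0.71, and among the markers the intervals clear of 0 are those of Esam (diet in ASKO mice, genotype on chow) and Egfl7 (genotype on chow), which did not pass after adjustment.

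Between genotypes, Egfl7 and Esam had the highest and the lowest value on chow, and no member passed on either diet. On chow, 0 of 10 members passed against 0.00761% of all genes, and 2 of 10 members (Egfl7 and Esam) had an unadjusted p under 0.05, against 631 of 13148 genes. On HFD, 0 of 10 passed against 0.00761% of all genes, with 0 members and 677 genes at an unadjusted p under 0.05 in the limma fit. For the interaction, 0 of 10 passed against 0% of all genes, with 0 members and 828 genes at an unadjusted p under 0.05. On HFD the gene that passed was Cdk20, above 0 only in the control HFD mice. It was named after its values were seen and is in no gene list used here.

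Egfl7 was higher in ASKO mice by 1.75 on the log2 scale on chow (95% interval 0.06 to 3.44, unadjusted p = 0.0431, limma adjusted p = 0.983) and by 1.36 on HFD (95% interval -0.33 to 3.05, adjusted p = 0.977). With a mouse left out in turn these values ran from 1.13 to 2.05 on chow and from 0.54 to 1.93 on HFD. In the control chow mice Egfl7 rested on 0 to 2.7 fragments. Exons of Egfl7 overlap those of Agpat2 on the opposite strand and those of Gm20532 on the same strand, besides its microRNAs. Agpat2, an acyltransferase of phosphatidic acid synthesis that was looked up after the values of Egfl7 were seen, was at 12, 23.9, 25.9 and 54.5 FPKM in the control chow mice and at 46, 62.9, 36.9 and 52.6 FPKM in the ASKO chow mice. On HFD, Agpat2 was at 26, 14.2, 23.6 and 29.1 FPKM in the control mice and at 70.7, 51.2, 35.4 and 74.5 FPKM in the ASKO mice. It was higher in ASKO mice on HFD without overlap and on chow with overlap, whereas Egfl7 overlapped on HFD and not on chow. The log2 fold changes of Agpat2 with genotype were 0.91 on chow (limma unadjusted p = 0.0352, adjusted p = 0.983) and 1.27 on HFD (unadjusted p = 0.00555, adjusted p = 0.824). Gm20532, also looked up afterwards, was above 0 in a single mouse. Both Egfl7 and Agpat2 thus had higher values in ASKO mice, shared fragments could not be separated without strand, and the part of Agpat2 in the Egfl7 values was not tested.

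Esam was lower in ASKO mice on chow, with a log2 fold change of -1.43 (95% interval -2.65 to -0.20, unadjusted p = 0.0252, limma adjusted p = 0.95) and an overlap of the groups. In the ASKO chow mice it rested on 0 to 1.1 fragments. On HFD the value was -0.44 (adjusted p = 0.993). Vegfa differed by -0.11 on chow and by 0.35 on HFD (adjusted p = 1 and 0.993), and the HFD value was -0.18 without the libraries that stood apart. Over the 9 markers the median genotype value was 0.31 on chow, where the median of all genes was 0, and -0.27 on HFD, where it was 0.0239. The median of the interaction was -0.39 over the 9 markers and 0.0385 over all genes. Intervals of a single genotype comparison were 1.72 to 3.38 wide for the 9 markers, so the design bounds these differences only loosely.

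Further vascular genes were taken from lists, some of which also held members, and 4 lists had a single gene each that passed with diet, or 10% to 12.5% of their genes against 7.53% of all genes. In the VEGF list (9 of 10 genes tested), 1 gene fell, Vegfa itself, and 0 rose, with a median log2 fold change of 0.11 and 3 genes at an unadjusted p under 0.05. Among these was the co-receptor gene Nrp2, named after its values were seen, which had a higher value on HFD and missed the threshold (1.22, adjusted p = 0.052). Nrp2 was at 1.27 in the control and 1.17 in the ASKO mice. The lowest value of the list was that of Vegfb, -1.67, also named after its values were seen, and it did not pass. Vegfb was at -1.23 in the control and -2.12 in the ASKO mice. The list median was 0.43 in the control and -0.215 in the ASKO mice. In the interaction, 2 of 9 genes of the list had an unadjusted p under 0.05, against 828 of 13148 genes, and 0 passed. In the list of the angiopoietin and TIE axis (8 of 9 tested), 1 gene rose, Angpt2, and 0 fell, with a median of -0.19 and no other gene at an unadjusted p under 0.05. In the control and ASKO mice alone, this list had medians of 0.014 and 0.107, so the pooled sign held in neither genotype. Angpt2, which encodes the angiopoietin that loosens the contact between vessel and support cells, was at 0.96, 0.963, 5.46 and 2.44 FPKM in the control chow mice and at 0, 0, 0.99 and 0 FPKM in the ASKO chow mice. On HFD, Angpt2 was at 1.36, 6.33, 9.76 and 2.8 FPKM in the control mice and at 4.41, 4.4, 5.07 and 3.26 FPKM in the ASKO mice. All ASKO mice on HFD were above all ASKO mice on chow, and the control groups overlapped. Over both genotypes the log2 fold change of Angpt2 was 1.45 (SE 0.38, limma adjusted p = 0.0258), and it passed in 22 of 27 alternatives. Its size depends on the pseudocount and was 2.8 with a pseudocount of 0.1. It did not pass without the libraries that stood apart (adjusted p = 0.0682), nor without control chow mouse 0 (0.0543) or 1 (0.0563), or control HFD mouse 1 (0.0526) or 2 (0.0514). The log2 fold change of Angpt2 was 1.42 without the libraries that stood apart and 1.28 to 1.37 in those other fits. Angpt2 also rose in the ASKO mice alone, by 2.14 (adjusted p = 0.0354), and its value in the control mice was 0.76 (adjusted p = 0.589), and the difference was not shown (interaction 1.38, adjusted p = 0.802).

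In the list of endoglin and ALK1 signalling (9 of 13 tested), Smad5 fell and 0 genes rose, with a median of -0.11 and 3 genes at an unadjusted p under 0.05. Smad5, a transcription factor that BMP receptors activate in many cell types, was at 7.89, 3.25, 6.26 and 7.01 FPKM in the control chow mice and at 7.41, 8.4, 5.53 and 4.11 FPKM in the ASKO chow mice. On HFD, Smad5 was at 1.08, 2.97, 2.89 and 1.67 FPKM in the control mice and at 2.58, 3.15, 4.67 and 2.4 FPKM in the ASKO mice. All but 1 of the HFD mice were below every chow mouse. Its log2 fold change was -0.99 (SE 0.29, adjusted p = 0.0488), only narrowly past the threshold, and it passed in only 8 of 27 alternatives. It was lost without the libraries that stood apart (adjusted p = 0.0942) and when any single mouse was left out other than control chow mouse 1, ASKO chow mouse 3 or ASKO HFD mouse 2 (adjusted p from 0.0518 to 0.094). The log2 fold change of Smad5 was -1 without those libraries and -1.05 to -0.89 in the fits without a single mouse that lost the call.

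Of the endothelial transcription factors (10 of 13 tested), Lmo2 rose and 0 genes fell, with a median of 0.34 and 3 genes at an unadjusted p under 0.05. Lmo2, a cofactor needed for blood and vessel development that is made in blood cells as well as endothelium, was at 6.85, 5.25, 4.89 and 11.2 FPKM in the control chow mice and at 10.1, 12.1, 2.79 and 8.93 FPKM in the ASKO chow mice. On HFD, Lmo2 was at 31.9, 46.9, 26.9 and 42.5 FPKM in the control mice and at 22.1, 60.6, 28.3 and 51 FPKM in the ASKO mice. All HFD mice were above all chow mice in both genotypes. The log2 fold change of Lmo2 was 2.21 (SE 0.31, limma adjusted p = 0.000175), and it passed in 27 of 27 alternatives. It also rose in each genotype alone, by 2.27 in the control mice and by 2.16 in the ASKO mice (adjusted p = 0.0073 and 0.00936).

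The remaining vascular lists had no gene that passed with diet, and of all 13148 genes 2549 had an unadjusted p under 0.05 in this comparison. Of the junction genes, 10 of 11 were tested, with 0 at an unadjusted p under 0.05 and a median of 0.18 (Ctnnb1 at 0.16 was the most abundant beside Pecam1). The vascular Notch list (5 of 9 tested) also had 0 genes at an unadjusted p under 0.05 and a median of -0.21 (Rbpj 0.76, Jag1 -0.23). Among 15 of 18 hypoxia response genes the median was 0.13, and 3 had an unadjusted p under 0.05 (Aldoa at 0.07 and Ldha at -0.23 were the most abundant). The genes of activated endothelium (5 of 7 tested) had a median of 0.20, with 2 at an unadjusted p under 0.05, Icam1 at 1.10 and Vcam1 at 0.99 (adjusted p = 0.168 and 0.0754). Their median was 0.806 in the control mice and 0.481 in the ASKO mice. Lymphatic markers (4 of 7 tested) had a median of -0.33 and 1 gene at an unadjusted p under 0.05 (Pdpn -0.40, Ccl21a 0.26 were the most abundant). Their median was 0.01 in the control mice and -1.70 in the ASKO mice, with 1 and 3 of 4 genes at an unadjusted p under 0.05. The value of Ccl21a joins 2.57 in the control mice and -2.06 in the ASKO mice (unadjusted p = 0.00977 and 0.0324), with an interaction of -4.63 (unadjusted p = 0.00178, adjusted p = 0.655) that did not pass. Pericyte and smooth muscle markers (10 of 13 tested) had a median of -0.06 and 1 gene at an unadjusted p under 0.05, Mcam at -0.67 (adjusted p = 0.0727), with Tagln at 0.02. Their median was 0.33 in the control mice and -0.39 in the ASKO mice, and Tagln was at 0.38 and -0.34. In the interaction, 2 of 10 of these genes had an unadjusted p under 0.05, against 828 of 13148 genes, and 0 passed.

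A further list of 28 endothelial markers outside the set, of which 25 were tested, had 1 gene that rose and 1 that fell with diet (8% of the genes tested, against 7.53% of all genes). Its median log2 fold change was -0.38, with 18 of 25 values below 0 and 4 at an unadjusted p under 0.05. The list median was -0.297 in the control mice (15 of 25 values below 0) and -0.509 in the ASKO mice (18 of 25). The pooled median also joins some genes whose values differed in sign between genotypes. In the interaction, 6 of 25 had an unadjusted p under 0.05, against 828 of 13148 genes. Examples picked after their values were seen are Rasip1 (1.81 in the control and -1.35 in the ASKO mice, interaction unadjusted p = 0.00183), Ramp2 (2.12 and -1.35, 0.00337) and Ecscr (-1.96 and 1.19, 0.00269), none of which passed (adjusted p = 0.655 each). The sign of this median was opposite to that of the 9 markers (0.31), and it held under all 27 alternatives, in which it ran from -0.59 to -0.21 while that of the 9 markers ran from 0.04 to 0.46. The summed FPKM of the 28 genes had a median of 175.9 on chow (94.0 to 243.9, 8 mice) and 103.8 on HFD (80.5 to 130.1, 8 mice). A single chow mouse, control chow mouse 2 at 94.0 FPKM, was within the HFD range, and the other chow mice were above every HFD mouse. This sum thus had a lower median on HFD, whereas that of the 9 markers had a higher one. Rgcc made up a large part of this sum. Without Rgcc the sum had a median of 120.6 FPKM on chow (76.3 to 174.0) and 90.3 FPKM on HFD (66.3 to 110.3), with a wide overlap. The near separation of the diets in the full sum thus rested on Rgcc. None of these medians was tested, and the endothelial genes together gave no common direction with diet. Many genes of this list were also low, with Sox18 listed at 0 in 14 of 16 mice and Cldn5 in 7 (both picked after their values were seen).

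Cd93, a surface glycoprotein of endothelial cells that monocytes and macrophages also make, was at 6.7, 1.82, 2.87 and 1.07 FPKM in the control chow mice and at 4.36, 0.818, 0.916 and 2.38 FPKM in the ASKO chow mice. On HFD, Cd93 was at 5.35, 9.81, 9.46 and 7.18 FPKM in the control mice and at 11.1, 7.71, 11.7 and 11 FPKM in the ASKO mice. All ASKO mice on HFD were above all ASKO mice on chow, and a single control mouse on HFD was within the chow range. The log2 fold change of Cd93 was 1.63 (SE 0.34, limma adjusted p = 0.00527), and it passed in 27 of 27 alternatives. In the ASKO mice alone it rose by 2.0 (adjusted p = 0.0269), and in the control mice its value was 1.27 (adjusted p = 0.203, interaction 0.73, adjusted p = 0.893).

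Rgcc, a regulator of the cell cycle and the most abundant gene of that list, was at 31.1, 105.9, 12.4 and 84.8 FPKM in the control chow mice and at 25, 94.7, 39.5 and 52.7 FPKM in the ASKO chow mice. On HFD, Rgcc was at 19.8, 13.8, 14.6 and 21.8 FPKM in the control mice and at 14.2, 11.7, 12.4 and 25.1 FPKM in the ASKO mice. The chow mice were widely spread, and 2 chow mice (control 2 and ASKO 0) were within the HFD range. The log2 fold change of Rgcc was -1.44 (SE 0.39, adjusted p = 0.0314), and it passed in 16 of 27 alternatives. It did not pass with upper-quartile scaling (adjusted p = 0.0518), without the libraries that stood apart (0.0571), or without any of 9 single mice, namely control chow 1 and 3, ASKO chow 1 and 3, control HFD 1 and 2, and ASKO HFD 0, 1 and 2 (0.0561 to 0.0691). In that order, the log2 fold change of Rgcc was -1.29, -1.5 and from -1.42 to -1.23.

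**Figure D3:**
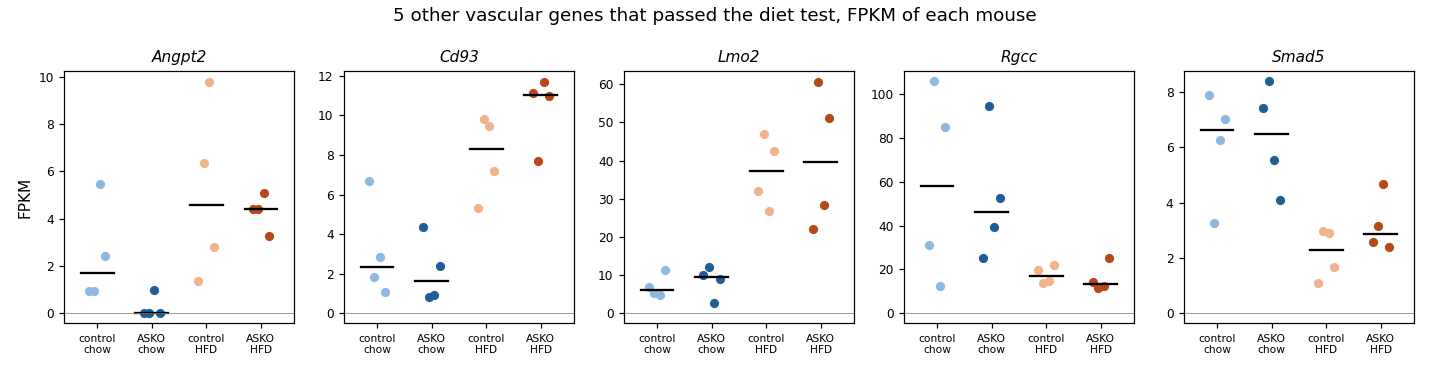
FPKM of Angpt2, Cd93, Lmo2, Rgcc and Smad5, the 5 other vascular genes that passed with diet, in the 4 groups of 4 mice, with FPKM on the vertical axis from 0. Points are mice and black bars are group medians. All HFD mice lie above all chow mice for Lmo2, while the other panels show overlap.

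Most adipocyte and macrophage markers changed in the same comparison, with list medians larger in size than the 0.31 of the 9 markers. The lists were not tested against each other. Of all genes tested, 3.04% fell and 4.49% rose in this comparison. Of 14 adipocyte markers, 9 fell on HFD (among them Cfd at -5.80, Car3 at -2.04, Adipoq at -1.52 and Retn at -2.91) and Lep rose by 1.78, with a list median of -0.92. Of 14 macrophage markers, 12 rose (among them Ctss by 3.94, Lyz2 by 1.95, Trem2 by 4.76 and C1qc by 2.41) and 0 fell, with a median of 2.18. Under the 27 alternatives 5 to 9 adipocyte markers fell and 11 to 12 macrophage markers rose.

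Summed over the list, macrophage markers were at 317.8, 350.9, 266.4 and 350.5 FPKM in the control chow mice and at 235.1, 310.9, 348.7 and 352.2 FPKM in the ASKO chow mice. On HFD the sums were 1371.9, 1491.9, 1110.0 and 1401 FPKM in the control group and, for ASKO mice, 1722.1, 2031.7, 1310.7 and 1839.8 FPKM. All HFD mice were above all chow mice, Lyz2 was the most abundant gene, and Trem2 and Fcgr1 were each listed at 0 in 5 chow mice and in 0 HFD mice. The adipocyte sums, led by Fabp4, were 12783.7, 21070.1, 16781.8 and 14032.4 FPKM in the control chow mice and 10936.3, 16023.3, 28544.3 and 15321.7 FPKM in the ASKO chow mice. On HFD they were 12044.4, 7047.9, 9271 and 5211.9 FPKM in the control group and, for ASKO mice, 8011.1, 7572.3, 7211.8 and 7073 FPKM. A single HFD mouse was above the lowest chow mouse, and of the adipocyte markers only Slc2a4 was listed at 0, in 1 HFD mouse. As background, adipocytes and macrophages make Vegfa, and myeloid cells make Cd93 and Lmo2. These lists moved in the same comparison as those genes. Their part in the result was not tested.

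Other lists had a smaller share of genes that passed with diet, and of all genes tested 7.53% passed. Lum (2.65) and Col3a1 (1.22) rose among 11 progenitor and fibroblast markers, of which 0 fell, with a median of 0.43. The sums of this list, led by Dpt, were 320.3 to 446.1 FPKM on chow and 520.1 to 851.9 FPKM on HFD, without overlap. Among the mesothelial markers (7 of 9 tested) Lrrn4 fell by 0.99 and 0 genes rose, with a median of -1.25, 7 of 7 values below 0 and sums, led by Upk3b, of 14.3 to 39.9 FPKM on chow and 1.65 to 32.1 FPKM on HFD. Platelet and erythroid markers, of interest because Pecam1 is also a platelet gene, had 6 of 10 genes tested, 0 that passed, 1 at an unadjusted p under 0.05 and a median of -0.63 (Hbb-bs -1.61, Pf4 1.22). The median of this list was 0.27 in the control mice and -1.42 in the ASKO mice, with 0 of 6 genes at an unadjusted p under 0.05 in the interaction. Only 2 of 10 lymphocyte markers could be tested, with 0 that passed and 1 at an unadjusted p under 0.05 (Cd79a 0.79, Cd79b at 0.00). For Cd79b this joins 1.42 in the control mice and -1.42 in the ASKO mice (unadjusted p = 0.0443 and 0.0441), and its interaction of -2.83 (unadjusted p = 0.00693, adjusted p = 0.655) did not pass. Of 5 skeletal muscle markers only Acta1 was tested (-1.12, adjusted p = 0.324), which joins 0.13 in the control mice and -2.36 in the ASKO mice (unadjusted p = 0.881 and 0.0114), with an interaction of -2.49 (unadjusted p = 0.0494, adjusted p = 0.791). Of 7 epididymis markers 0 could be tested, and Adam7 was above 0 in 1 mouse. Between genotypes and in the interaction, 0 of the 162 genes tested over all lists passed, with 15 at an unadjusted p under 0.05 on chow, 9 on HFD and 19 in the interaction. Of all 13148 genes, 631, 677 and 828 had an unadjusted p under 0.05, and 0.00761%, 0.00761% and 0% passed.

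**Figure D4:**
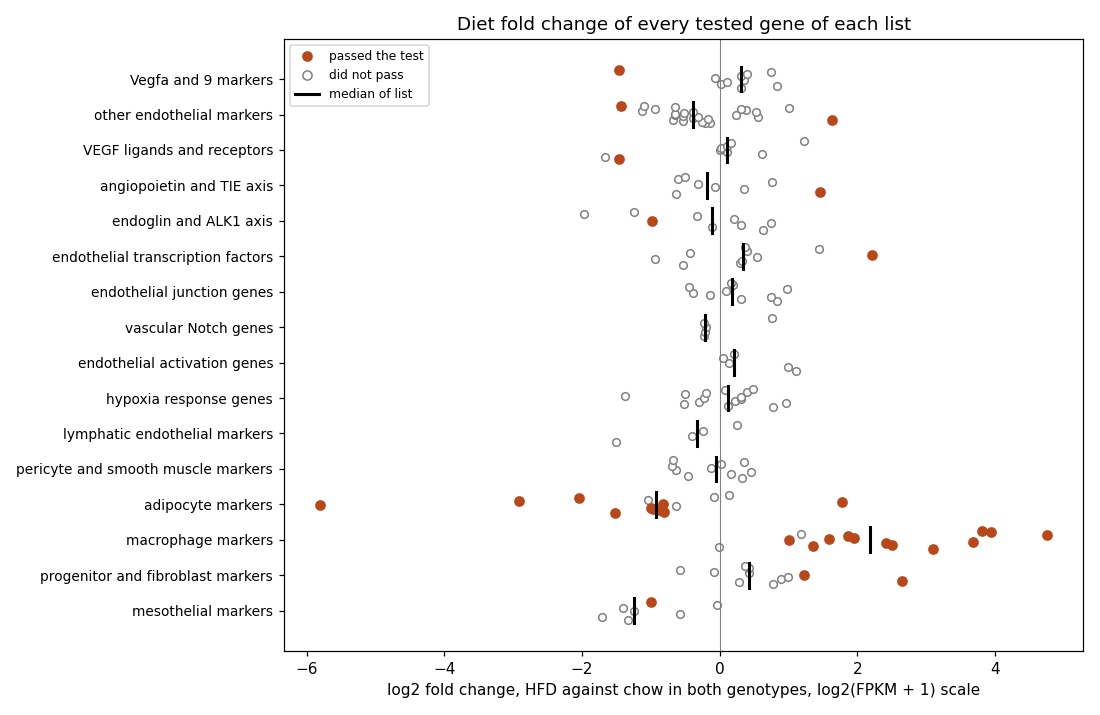
Log2 fold change with HFD over both genotypes on the log2(FPKM + 1) scale (horizontal axis) for the tested genes of each vascular list and of adipocyte, macrophage, progenitor and mesothelial markers (vertical axis). Filled points passed the test, open points did not, and black bars are list medians. Macrophage markers lie mostly to the right (median 2.18) and adipocyte markers mostly to the left (median -0.92), while the vascular lists have medians from -0.38 to 0.34.

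Across the 16 mice, pairs of members were only loosely related on the log2(FPKM + 1) scale, and these correlations are given as a description. The highest Pearson r among the 45 pairs was 0.68, for Pecam1 and Cdh5, followed by 0.55 for Flt1 and Tek and 0.48 for Tek with both Pecam1 and Cdh5. The lowest was -0.40, for Tie1 and Esam. Vegfa had its highest r with Tie1 (0.45) and its lowest with Esam (-0.33), while its r with its receptors was 0.21 for Kdr and -0.03 for Flt1. Values of a mouse share its library and depth, and several members rest on few fragments.

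The genes whose pattern over the 16 mice was most like the mean of the 9 standardised markers were Cdan1 (r = 0.838), Dpp9 (0.831), Star (0.822), Dnah17 (0.811) and RP23-345D18.4 (0.803). They were followed by Gm44620 (0.801), Gatc (0.799), Tmem175 (0.793), Rin3 (0.79) and Nxpe2 (0.789). None of these 10 genes belongs to an endothelial list used here, and 2 of them, Dpp9 at 0.395 and Gm44620 at 0.676 FPKM, had a mean under 1 FPKM. For Vegfa the most alike were Gm9747 (r = 0.852), Gab1 (0.844), BC035947 (0.841), Pdcd7 (0.831) and RP23-118B13.1 (0.83), all over 16 mice.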

How the data were processed

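Per the labels and the study's methods, the authors ran TrimGalore on reads of a directional mRNA kit, STAR with the GENCODE annotation for alignment to mm10, and Cufflinks for the FPKM of each gene. The deposited FPKM table was used as it stands. The GENCODE release and the use of strand in counting are not given in the sources used here. Positions and exon overlaps came from GENCODE M21 (GRCm38), which held 99.6% of the gene identifiers, and promoters from RefSeq (GRCm38.p6).

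Groups were compared with limma 3.58.1 (R 4.3.3) on log2(FPKM + 1), where changes of low genes appear smaller than they are, with the 4 groups in one fit, an intensity trend and Benjamini-Hochberg adjustment within each contrast. The contrast over both genotypes is the mean of both diet contrasts. Members and lists were chosen with earlier results of these data known. Named genes were the members, Mboat7, per list up to 4 genes that rose and 4 that fell with the lowest adjusted p, or else the 2 with the highest mean, and the genes most alike. Alternatives were other pseudocounts, filters, scalings, fits, a replicate block, and leaving out mice. Python 3.11.15, pandas 2.3.3, numpy 2.4.6 and matplotlib 3.10.9 were used. A result for a gene withheld for evaluation is not reported here.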

Additional observations from a re-analysis of the deposited data

Results flagged for a closer look

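Among 96 groups of 4 mice examined, 10 held a mouse well apart from the remaining 3. The values examined were those of the members, Mboat7, Agpat2 and the other vascular genes that passed. Library measures and the sums of the 9 markers, the other endothelial markers, the adipocyte markers and the macrophage markers were also included. About 5 would be met by chance (1 in 20). For Pecam1, ASKO chow mouse 0 was at 32.86 FPKM against 15.7 to 18.1 in the others. For Flt1, control chow mouse 3 was at 4.422 FPKM against 1.43 to 1.91. For Tie1, ASKO HFD mouse 3 was at 5.73 FPKM against 0.732 to 1.27. For Eng, control HFD mouse 1 was at 6.085 FPKM against 0.761 to 1.59. For Egfl7, ASKO chow mouse 2 was at 23.33 FPKM against 8.39 to 8.97. For Angpt2, the same mouse was at 0.9902 FPKM while the others were listed at 0.

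Among the library measures, the FPKM sum of control chow mouse 1 was 7.724e+05 against 6.12e+05 to 6.36e+05, and its 10 highest genes took 41.95% of it against 35.4% to 35.8%. In ASKO HFD mouse 3, the 10 highest genes took 54.22% against 38.7% to 39.2%. The scale of control HFD mouse 0 stood for 4.049e+05 fragments against 2.94e+05 to 3.05e+05.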

How the results depend on the processing

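Over 28 alternatives (12 settings and 16 with a mouse left out), the diet result of Vegfa over both genotypes kept its direction and its side of the threshold in 26 of 26 that bear on it, with a log2 fold change from -1.66 to -1.26. Of 1579 member values under the alternatives, 1516 kept direction and side, 62 changed sign and 1 came to pass. The largest original size of a value that changed sign was 0.59, and the lowest adjusted p of the 9 markers in any alternative was 0.0599. The cause of the changes was not tested, apart from fewer mice or genes where these were left out. Low values rest on few fragments, which limits Tie1, Eng, Esam and Mboat7 most.

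With a pseudocount of 0.1, Kdr was at 0 (diet, both genotypes) and Eng at 0.30 (diet, ASKO). Genes that passed between genotypes numbered 2 on chow and 2 on HFD without a filter, and 0 and 0 with a filter of 5 FPKM. On chow they numbered 0 with upper-quartile scaling (Tie1 diet value 0.01), median-of-ratios scaling or robust estimation. With only the compared groups they numbered 5 on chow and 2 on HFD, and 1 member, Vegfa, passed with diet in the control mice.

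Replicate numbers are shared between groups but name different animals. Correlations of same-numbered mice ran from -0.19 to 0.15 (median 0.01, 24 pairs) and of differently numbered mice from -0.10 to 0.26 (median 0, 72 pairs). Of 16 mice, 8 were closest to their own number, which 3 of the 12 mice compared with each share. With the replicate block, genes that passed numbered 926 (diet, both genotypes), 361 (control), 390 (ASKO), 0 (genotype on chow) and 0 (genotype on HFD), with 1 member in the first and 0 in the others, and Smad5 no longer passed (adjusted p = 0.0784).

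A pair of alternatives was added after seeing the data. Without the libraries that stood apart, diet values over both genotypes were -0.19 for Kdr, -0.06 for Flt1 and -0.11 for Egfl7. In ASKO mice they were -0.09 for Pecam1, -0.05 for Kdr, -0.22 for Tie1 and -0.23 for Egfl7. Vegfa was at -0.18 for genotype on HFD and -0.06 for the interaction, and Tie1 at -0.09 for the interaction. Genes that passed then numbered 707 for diet over both genotypes, 234 for diet in control mice, 2 for genotype on chow, 0 for genotype on HFD and 1 for the interaction. Scaled to the sum outside the 10 highest genes, Kdr was at 0.04 (genotype on HFD), Cdh5 at 0.10 (interaction) and Tie1 at 0 (diet, both genotypes). This scaling moved the median of all genes to 0.185 (diet, ASKO), 0.136 (genotype on HFD) and 0.242 (interaction), and upper-quartile scaling to 0.107 (diet, both genotypes), 0.177 (diet, ASKO) and 0.133 (interaction).

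With a mouse left out in turn, diet values over both genotypes ran from -0.28 to 0.07 for Tie1, -0.11 to 0.13 for Kdr and -0.07 to 0.29 for Flt1. In control mice they ran from -0.36 to 0.13 for Kdr and -0.02 to 1.40 for Egfl7. In ASKO mice they ran from -0.56 to 0.08 for Flt1, -0.54 to 0.26 for Eng, -0.10 to 0.24 for Pecam1, -0.19 to 0.27 for Tek, -0.11 to 0.35 for Kdr, -0.22 to 0.45 for Tie1 and -0.23 to 0.54 for Egfl7. Genotype values ran from -0.52 to 0.30 for Vegfa on chow, and on HFD from -0.33 to 0.14 for Kdr and -0.52 to 0.05 for Pecam1. Interaction values ran from -0.48 to 0.41 for Cdh5 and -1.20 to 0.22 for Egfl7. Genes that passed ran from 0 to 4 (genotype on chow), 0 to 2 (genotype on HFD), 0 to 1 (interaction) and 264, without ASKO HFD mouse 0, to 492 (diet, ASKO).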
